A study of Solanum pimpinellifolium with 60 samples.

Results

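The fas and lc alleles of tomato both act on the number of fruit locules, through mutations at different genes. Here their near-isogenic lines (NILs) were set directly against each other. The study describes lc as a weak allele that by itself changes locule number very little in the wild-species background. Of the 60 libraries of the series, 30 entered the comparison: all 15 whose label names the fas genotype and all 15 whose label names the lc genotype, 3 replicates at each of 5 stages, with developmental stage as covariate and no wild-type or lc/fas library. The assay was 3′ Tag RNA-seq, in which the 3′ end of each mRNA is sequenced. Both NILs carry their allele in the background of the wild species Solanum pimpinellifolium LA1589, after repeated backcrosses from cultivated tomato, and were grown in a greenhouse. The lc line holds a segment of chromosome 2 with base changes downstream of SlWUS and no fas allele; the fas line holds a segment of chromosome 11 with an inversion that breaks the promoter of SlCLV3 and the first intron of SlYABBY2b, and no lc allele. The youngest stage is the vegetative apex of a sympodial unit, called SYM, and the next one holds floral with inflorescence meristems together, called F&IM. Buds were taken 2, 4 and 6 days after a flower was initiated (2, 4 and 6 dpi). All stages were dissected from the inflorescences of 5- to 7-week-old plants. Each NIL also carries the neighbouring donor genes of its segment, so the allele and the rest of the segment cannot be told apart.

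In flowering plants the size of a meristem is held by a feedback loop. WUSCHEL, a homeodomain transcription factor made in the organizing centre, keeps the cells above it as stem cells and switches on CLAVATA3, a small secreted peptide that limits WUSCHEL in turn through receptor kinases. In tomato, weakening of the peptide enlarges the floral meristem and adds carpels, which become locules, and SlCLE9 encodes a related peptide that can take over part of the role of SlCLV3. The direct comparison asks how the transcriptome differs when this loop is altered on the side of the peptide (fas) or on the side of SlWUS (lc).

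Total counts per library ran from 2038899 to 7089173 in lc and from 441291 to 7286930 in fas, the lowest being fas 6 dpi, replicate 3. The labelled tissues were checked by markers: the AGAMOUS homolog TAG1 (Solyc02g071730) stood at no more than 4.68 RPM (counts per 1000000 counts of a library) in every SYM, F&IM and 2 dpi library of lc and fas and at 80.2 RPM or more in every 4 and 6 dpi library, and SlWUS was highest in the F&IM, at 35.9 to 48.8 RPM. The 5 libraries that share a genotype and a replicate number are called a collection here, and there are 3 collections of each NIL. Residuals of libraries from 1 collection were correlated (mean r of 0.194 over 60 pairs, a description), whereas the model of stage and genotype takes 15 libraries against 15 as independent, so calls are also given with the collection as a random block in limma-voom and with the counts of each collection summed, 3 against 3.

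Over the 5 stages, 183 genes were higher in fas (1.00% of the 18224 tested) and 156 were higher in lc (0.856%), at an adjusted p under 0.1 by edgeR's quasi-likelihood test. The differences were small for most of them: the median size was 0.46 on the log2 scale for the genes higher in fas and 0.34 for those higher in lc, and 19 and 4 genes respectively differed by more than 2-fold. The group means lay in 1 direction at all 5 stages for 166 of the 183 and 142 of the 156 genes. As these genes were called on their difference over the same 5 stages, the selection itself favours such agreement, and it is not separate evidence. With the collection as a random block, limma-voom called 46 of the 339 genes and no others. With counts summed per collection, 4 genes passed, of which 2 were higher in fas (SlCLE9 and Solyc09g014550) and 2 in lc (Solyc01g081250 and Solyc08g068710). The third fas collection had a large weight: without it edgeR called 954 genes, and without the first lc collection the genes higher in fas fell to 103.

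SlCLE9 (Solyc06g074060), the peptide gene related to SlCLV3, gave the smallest p of all genes. In the SYM the 3 lc libraries held 13.6, 11.5 and 10.3 RPM and the 3 fas libraries 51.3, 43.8 and 40.3 RPM. In the F&IM the values were 6.48, 11.1 and 3.45 RPM in lc against 34.5, 28.5 and 34.2 RPM in fas. Every fas library stood above every lc library at these stages and also at 2 dpi (10.5 to 20.8 against 1.9 to 3.57 RPM) and 4 dpi (3.18 to 5.28 against 1.09 to 1.48 RPM), while at 6 dpi the transcript had nearly gone from both NILs, with at most 0.538 RPM in any library. The fas mean was 3.84-fold the lc mean in the SYM, 4.62-fold in the next stage, 5.9-fold in 2 dpi buds and 3.34-fold in 4 dpi buds. Over the 5 stages the log2 difference was 2.07 (standard error 0.15, edgeR adjusted p = 6.83e-12), and with counts summed per collection it was 2.29 (edgeR adjusted p = 0.00484). The wild type lay near lc, with a mean of 9.29 ± 0.5 RPM in the SYM (SD, n = 3).

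**Figure D1:**
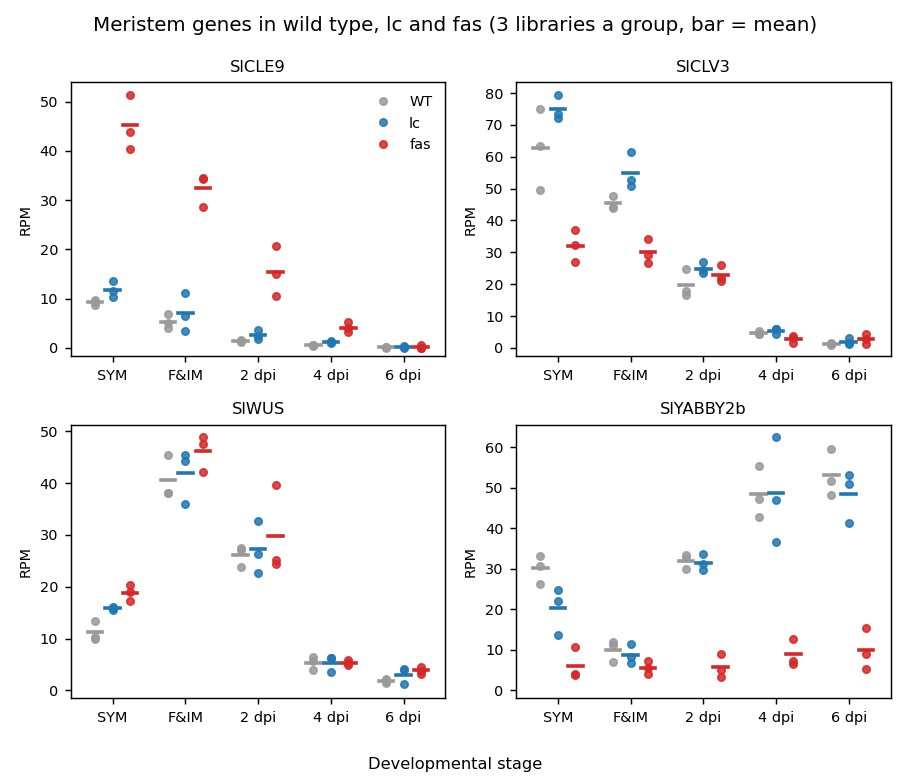
RPM (counts per 1000000 counts of a library, linear axis from near 0) of SlCLE9, SlCLV3, SlWUS and SlYABBY2b at the 5 stages in the wild type (grey), lc (blue) and fas (red). Points are the 3 libraries of a group and bars their means; SlCLE9 in fas lies above lc until 4 dpi, SlCLV3 in fas lies below lc in the SYM and F&IM, SlWUS in fas and lc overlaps at all stages but the SYM, and SlYABBY2b in fas lies below lc at all stages but the F&IM.

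SlCLV3 (Solyc11g071380), the peptide gene whose promoter the fas inversion breaks, was lower in fas than in lc at the stages where the gene was most active. In the SYM the lc libraries held 73.5, 72.2 and 79.4 RPM and the fas libraries 32.2, 36.9 and 26.9 RPM. In the F&IM the values were 50.7, 61.6 and 52.8 RPM in lc and 29.2, 34.2 and 26.6 RPM in fas. The groups were apart at both stages, and the lc mean was 2.34-fold the fas mean in the SYM and 1.84-fold in the F&IM. The log2 difference was -1.27 in the SYM (standard error 0.17, edgeR adjusted p = 0.00028 over all genes of that stage) and -0.89 in the F&IM (standard error 0.17, edgeR adjusted p = 0.0552). At 2 dpi the groups overlapped, with 23.4 to 27 RPM in lc and 20.9 to 26 RPM in fas. At 4 dpi lc held 4.35 to 5.91 RPM and fas 1.7 to 3.72 RPM, which did not overlap but did not pass the test for that stage (edgeR adjusted p = 1). At 6 dpi all 6 libraries held at most 4.53 RPM. The difference over the 5 stages was -0.77 on the log2 scale (standard error 0.12, edgeR adjusted p = 0.000244, and 0.00343 by limma-voom with the collection as block). A fit on all 60 libraries, which shares the fas and lc libraries with the direct comparison, called 0.323% of genes between lc and the wild type and 2.22% between fas and the wild type. In it SlCLV3 gave a log2 value of 0.29 in lc (edgeR adjusted p = 0.553) and -0.46 in fas (edgeR adjusted p = 0.0949).

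SlWUS (Solyc02g083950), the stem cell gene beside the lc base changes, did not pass the test between the NILs. In the SYM it stood at 16.1, 16 and 15.5 RPM in lc and at 18.9, 17.3 and 20.3 RPM in fas, so the fas libraries lay just above. At each of the other 4 stages the groups overlapped, for example 44.3, 45.4 and 35.9 RPM against 48.8, 47.6 and 42.1 RPM in the F&IM. The log2 difference over the 5 stages was 0.13 (standard error 0.093, edgeR adjusted p = 0.687). In the SYM every wild-type library lay below every lc and fas library. At 6 dpi the wild type lay below fas and overlapped lc. In the fit on 60 libraries the log2 value of SlWUS against the wild type was 0.18 in lc and 0.31 in fas. Neither passed (edgeR adjusted p = 0.614 and 0.127). The study reports SlWUS as higher than in the wild type in both single mutants in the SYM and the oldest buds. TAG1, the organ identity gene of stamens and carpels that the Arabidopsis WUS activates, held 86.1, 97.1 and 80.2 RPM in lc and 117, 106 and 110.5 RPM in fas at 4 dpi, and the ranges overlapped at 6 dpi (154 to 215 against 156 to 267 RPM). Its difference over the 5 stages, 0.35 on the log2 scale, did not pass (standard error 0.14, edgeR adjusted p = 0.28). At 4 dpi every wild-type library lay below every lc and fas library for TAG1. In the fit on 60 libraries its log2 value against the wild type was 0.15 in lc and 0.49 in fas. Only that of fas passed (edgeR adjusted p = 0.0610, against 0.754 in lc).

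SlYABBY2b (Solyc11g071810), a YABBY transcription factor gene of lateral organs whose first intron holds the other breakpoint of the inversion, was lower in fas at every stage in its means. At 2 dpi the lc libraries held 31.2, 33.6 and 29.7 RPM and the fas libraries 5.05, 8.89 and 3.3 RPM. At 4 dpi the values were 47.1, 36.5 and 62.5 RPM in lc and 7.33, 12.8 and 6.65 RPM in fas, and at 6 dpi 53, 51 and 41.3 RPM against 5.42, 15.4 and 9.06 RPM. In lc the level went from 6.9 to 11.4 RPM in the F&IM to 41.3 to 53 RPM in the oldest buds, while no fas library at any stage exceeded 15.4 RPM. The study found that nearly all transcripts of this gene in fas came from the first exon, ahead of the breakpoint. It took them as truncated RNAs, likely without function, so the fas values need not stand for intact transcript. The lc mean was 5.48-fold the fas mean at 2 dpi, 5.46-fold at 4 dpi and 4.86-fold at 6 dpi, and each passed edgeR's test for its stage (adjusted p = 0.00116, 0.00103 and 0.022). In the F&IM the groups overlapped. Over the 5 stages the log2 difference was -2.01 (standard error 0.20, edgeR adjusted p = 4.35e-07), and limma-voom with the collection as block gave -2.25 (adjusted p = 3.86e-07). Of the 10 meristem genes listed, 3 were higher in fas and 2 higher in lc, beside 1.00% and 0.856% of all genes. Those higher in fas were SlCLE9, an AGL20 homolog and a homolog of GRF5, a growth-regulating factor of Arabidopsis leaves. Those higher in lc were SlCLV3 and SlYABBY2b. The study has members of this list among its differentially expressed genes of these libraries, so these counts are not independent evidence. The AGL20 homolog (log2 difference 0.31, standard error 0.085, edgeR adjusted p = 0.0619) was not called without the first or the second lc collection. The GRF5 homolog (Solyc08g075950) held 85, 93.3 and 79.4 RPM in lc and 103, 109.9 and 95.9 RPM in fas in the SYM, with a log2 difference of 0.28 (standard error 0.057, edgeR adjusted p = 0.00573), but limma-voom with the collection as block gave an adjusted p of 0.14 for it.

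In 4 genes (0.0219% of those tested) the libraries of fas and lc did not overlap at any of the 5 stages, and all 4 were lower in fas. Of all genes tested, those with every fas library below every lc library made up 2.44% in the SYM, 2.28% in the F&IM, and 3.45%, 2.83% and 5.88% in the 2, 4 and 6 dpi buds. Those with every fas library above made up 6.27%, 5.00%, 3.90%, 5.24% and 3.17% in the same order. Solyc01g081250, paired by the study with AT3G09270, a glutathione S-transferase of the tau class in Arabidopsis, held 15.1, 13.9 and 17.6 RPM in lc at 2 dpi and 1.61, 3.56 and 4.72 RPM in fas. Its lc mean was 4.71-fold the fas mean at 2 dpi, 3.23-fold in the F&IM, and 1.9-fold in the SYM (8.9, 8.63 and 9.47 against 5.08, 4.25 and 4.86 RPM). The log2 difference over the stages was -1.64 (standard error 0.15, edgeR adjusted p = 5.87e-09), and it kept its call with counts summed per collection. The wild type lay between, and in the fit on 60 libraries the log2 value was 0.62 in lc (edgeR adjusted p = 0.0281) and -1.01 in fas (edgeR adjusted p = 5.31e-05).

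Solyc08g068710 pairs with AT2G39030, an Arabidopsis ornithine acetyltransferase. It is a gene of low level: the SYM libraries held 7.84, 5.43 and 5 RPM in lc and 0.961, 1.59 and 1.14 RPM in fas, and the F&IM libraries 5.37, 4.35 and 5.52 RPM against 1.84, 1.61 and 1.46 RPM. The lc mean was 4.94-fold the fas mean in the SYM and 3.1-fold in the F&IM, and both passed edgeR's test for the stage (adjusted p = 0.000362 and 0.0552). At 4 and 6 dpi every library held under 2 RPM. The separation at 6 dpi rested on 3, 3 and 0 counts in fas against 6, 4 and 4 in lc, the 0 being in replicate 3. Solyc10g085280, paired with the glucosyltransferase UGT76B1 of Arabidopsis, which conjugates isoleucic acid in plant defence, showed a small difference at each stage, such as 24.7, 25.1 and 18.5 RPM in lc against 12.6, 13.8 and 14.6 RPM in fas at 2 dpi. Its log2 difference over the stages was -0.60 (standard error 0.081, edgeR adjusted p = 2e-05).

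Solyc02g083890, the last of the 4, lies in the lc segment of chromosome 2. The SYM libraries held 301, 256 and 281 RPM in lc and 168, 153 and 176 RPM in fas, and at 4 dpi the values were 249, 218 and 201 RPM against 134, 133 and 130.4 RPM. The log2 difference was -0.70 (standard error 0.059, edgeR adjusted p = 5.44e-10), with an lc mean 1.36-fold to 1.69-fold the fas mean. In the fit on 60 libraries it stood 0.76 above the wild type in lc on the log2 scale (edgeR adjusted p = 3.06e-14) and 0.062 above it in fas (edgeR adjusted p = 0.669).

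**Figure D2:**
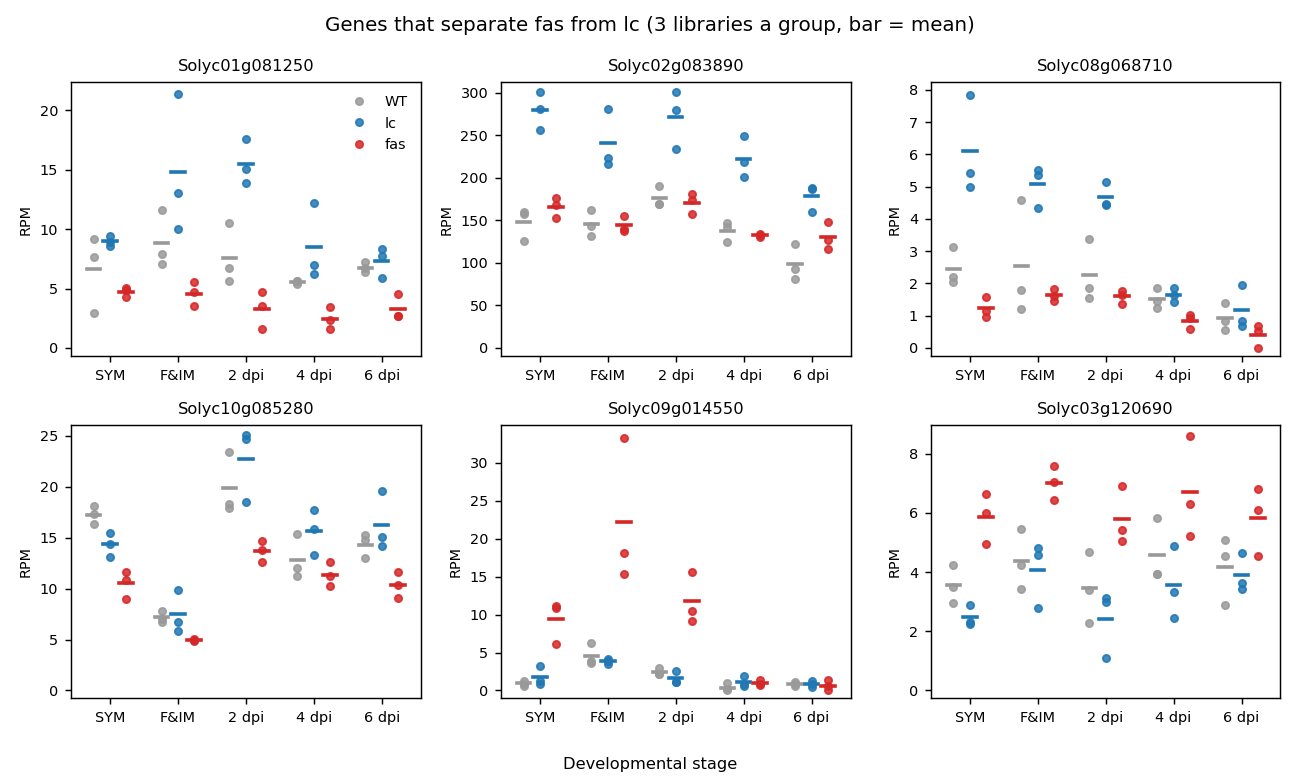
RPM (linear axes) in the wild type (grey), lc (blue) and fas (red) of the 4 genes whose fas and lc libraries do not overlap at any stage (Solyc01g081250, Solyc02g083890, Solyc08g068710 and Solyc10g085280) and of 2 genes higher in fas (Solyc09g014550 and Solyc03g120690). Points are the 3 libraries of a group and bars their means; Solyc09g014550 separates fas from lc in the SYM, F&IM and 2 dpi buds and lies near 0 in both at 4 and 6 dpi.

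Among genes higher in fas, Solyc09g014550 had a course of its own. It pairs with AT5G28010, a member of the major latex protein family of Arabidopsis. The F&IM libraries held 3.52, 3.86 and 4.14 RPM in lc and 33.3, 15.3 and 18.1 RPM in fas, and the 2 dpi libraries 1.11, 2.57 and 1.11 RPM against 15.6, 10.5 and 9.2 RPM. The fas mean was 5.24-fold the lc mean in the SYM, 5.79-fold in the F&IM and 7.36-fold at 2 dpi, each past edgeR's test for its stage (adjusted p = 0.0118, 0.000408 and 0.000313). At 4 and 6 dpi both NILs held under 2 RPM and the groups overlapped. The log2 difference over the stages was 2.17 (standard error 0.26, edgeR adjusted p = 6.14e-06) and held with counts summed per collection (2.47, edgeR adjusted p = 0.047). Solyc03g120690, a homolog of the dynein light chain family, stood at 4.53 to 8.6 RPM in the 15 fas libraries and 1.11 to 4.89 RPM in the 15 lc libraries. Its groups were apart at 4 of the 5 stages, with a log2 difference of 0.96 (standard error 0.14, edgeR adjusted p = 6.27e-05).

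The fas segment of chromosome 11 held 10 of the 339 called genes. Of the 33 tested genes whose identifiers run from Solyc11g071370 to Solyc11g071830, 2 were higher in fas and 8 higher in lc (30.3% called, against 1.86% of all genes). All 10 are among the 16 genes the study lists as introgressed with fas, a list that it drew from its own differential expression in these libraries, so their count is not independent evidence; none of the other 17 genes in this run of identifiers was called. Beside SlCLV3 and SlYABBY2b, the genes higher in lc included Solyc11g071830, the last of the run and a homolog of the Arabidopsis DnaJ chaperone J3. Its lc libraries ranged from 29.4 to 99.4 RPM (median 46.4) and its fas libraries from 14.7 to 55 RPM (median 23.6), with a log2 difference of -1.13 (standard error 0.19, edgeR adjusted p = 0.0017). At each stage the third lc collection was the highest, for example 97.2 RPM in the F&IM beside 43.5 and 40.3 RPM. Solyc11g071790, a homolog of a subunit of the Arabidopsis succinate dehydrogenase, held 58.1, 48.6 and 54.4 RPM in the lc SYM and 45.6, 32.7 and 40.9 RPM in the fas SYM. It differed by -0.47 on the log2 scale (standard error 0.07, edgeR adjusted p = 0.000117). Solyc11g071730, a kinesin homolog, differed by -0.40 (standard error 0.061, edgeR adjusted p = 0.000183), from a median of 216 RPM in lc to 173 RPM in fas.

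Solyc11g071370, next to SlCLV3 by identifier and a homolog of a pentatricopeptide repeat protein of Arabidopsis chloroplasts, was low in both NILs, with a median of 4.15 RPM in lc and 2.27 RPM in fas. Its difference was -0.99 on the log2 scale (standard error 0.18, edgeR adjusted p = 0.00184). In the other direction, Solyc11g071740, a homolog of the calmodulin-like gene CML38, had a median of 15.6 RPM in fas and 10.5 RPM in lc, and a log2 difference of 0.91 (standard error 0.20, edgeR adjusted p = 0.0157). Its fas libraries were uneven, with 68.2, 29.2 and 2.27 RPM at 6 dpi, and the call was lost without the first fas or the second lc collection. In the lc segment of chromosome 2, 13 genes were tested and 2 called (15.4%): Solyc02g083890 above, and Solyc02g083880, a homolog of a gibberellin-regulated GASA peptide gene of Arabidopsis. The latter was higher in fas, with 131, 177 and 135 RPM in the lc SYM and 229, 289 and 296 RPM in the fas SYM, and a log2 difference of 0.52 (standard error 0.13, edgeR adjusted p = 0.0364). That call was lost without collection 1 or 3 of lc and without collection 2 or 3 of fas. With the collection as block, the limma-voom adjusted p was 0.14 for Solyc11g071370, 0.111 for Solyc11g071740 and 0.255 for Solyc02g083880, so none of these 3 kept its call. Whether reads of the donor alleles of these segments align as well as those of the other NIL was not tested.

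**Figure D3:**
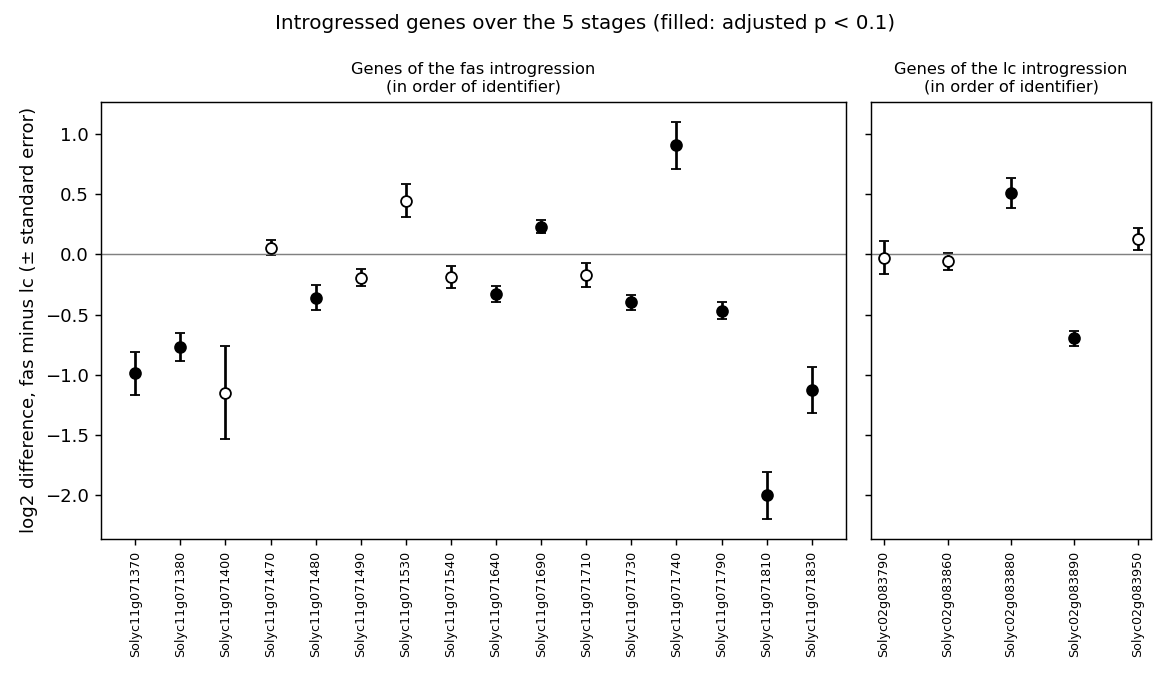
Log2 difference over the 5 stages, fas minus lc, with its standard error from edgeR, for the 16 genes listed with the fas segment (left) and the 5 listed with the lc segment (right), in order of identifier. Filled points passed an adjusted p under 0.1; SlYABBY2b (Solyc11g071810) is the lowest at -2.01, and the called genes lie on both sides of 0.

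Among the called genes, up to 12 on each side were picked for the size of their difference, provided that they averaged 5 RPM or more and kept 1 direction through all stages. Solyc12g006570, a homolog of the Arabidopsis sesquiterpene synthase TPS21, was a bud gene, with 52.8, 49 and 36.3 RPM in lc and 26.6, 34.8 and 22.7 RPM in fas at 6 dpi. At 4 dpi lc held 16.8 to 26.6 RPM and fas 8.39 to 10.9 RPM, and the difference passed for that stage (-1.16 on the log2 scale, edgeR adjusted p = 0.0321). Solyc05g053400, a homolog of UGT72E1, which glucosylates monolignol aldehydes in Arabidopsis, had a median of 15.6 RPM in lc and 8.01 RPM in fas (log2 difference -0.81, standard error 0.14, edgeR adjusted p = 0.00113). Solyc09g084450, a proteinase inhibitor gene of the PR-6 kind, ranged from 75.7 to 712 RPM in lc and from 56.8 to 447 RPM in fas, with a log2 difference of -0.74 (standard error 0.15, edgeR adjusted p = 0.00845). The last lost its call in limma-voom with the collection as block (adjusted p = 0.106), whereas the other 2 kept theirs.

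Beside Solyc02g083890, 2 of these genes higher in lc passed the test against the wild type in lc and not in fas. Solyc08g008310, a homolog of the long-chain acyl-CoA synthetase LACS4 of Arabidopsis, had a median of 11.6 RPM in lc, 8.18 RPM in fas and 6.11 RPM in the wild type. Its log2 value against the wild type was 0.91 in lc (edgeR adjusted p = 3.23e-07) and 0.28 in fas (edgeR adjusted p = 0.276), and the direct difference was -0.63 (standard error 0.11, edgeR adjusted p = 0.0017). Solyc00g026160, a homolog of the ferric reductase FRO4, gave 1.02 in lc (edgeR adjusted p = 0.000911), 0.16 in fas (edgeR adjusted p = 0.743) and a direct difference of -0.87 (standard error 0.18, edgeR adjusted p = 0.00933). In limma-voom with the collection as block the direct difference of Solyc08g008310 did not pass (adjusted p = 0.111) and that of Solyc00g026160 did (adjusted p = 0.0139), though the latter was not called by edgeR without the third lc collection.

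On the fas side, the genes with the largest differences included homologs of late embryogenesis abundant (LEA) proteins, which protect cells from drying. Of the 9 genes listed for water deficit and abscisic acid (ABA), 5 were higher in fas and none higher in lc, beside 1.00% and 0.856% of all genes. The median log2 difference was 0.67 (all genes: -0.0058). The study has homologs of LEA proteins and of RD26 among its differentially expressed genes of these libraries, so these counts are not independent evidence. The LEA homolog Solyc07g053360 ranged from 3.54 to 183 RPM in fas (median 28.8) and from 2.07 to 54.2 RPM in lc (median 10.6), so the NILs overlapped widely. The log2 difference was 1.54 (standard error 0.34, edgeR adjusted p = 0.0177). A further LEA homolog, Solyc10g078770, differed by 2.55 (standard error 0.47, edgeR adjusted p = 0.00456) at a low level (median 6.37 RPM in fas and 0.741 RPM in lc), and Solyc09g008770 by 1.16 (standard error 0.28, edgeR adjusted p = 0.0423). The homolog of RD26, a NAC transcription factor induced by drying in Arabidopsis, had a median of 11.5 RPM in lc and 16.7 RPM in fas (log2 difference 0.67, standard error 0.12, edgeR adjusted p = 0.00266).

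These genes moved with single collections. Averaged over the stages, Solyc07g053360 stood at 49.6, 82.4 and 16.7 RPM in fas collections 1, 2 and 3, and at 25.3, 17.3 and 9.35 RPM in those of lc. Solyc10g078770 stood at 12, 8.5 and 0.51 RPM in fas and at 1.89, 1.11 and 0.835 RPM in lc, so the third fas collection lay below every lc collection. The wild type was uneven in the same way, with 15.1, 46.7 and 12.4 RPM of Solyc07g053360. Without the second fas or the second lc collection 2 genes of the list were higher in fas, and without the third of fas 7. In the fits without the second lc and without the third fas collection, 1 gene of the list was higher in lc. Limma-voom with the collection as block kept 2 (Solyc07g053360 and the RD26 homolog), with adjusted p of 0.365 for Solyc10g078770 and 0.203 for Solyc09g008770. Solyc12g098900, a gene with no homolog given, differed by 1.97 on the log2 scale (standard error 0.42, edgeR adjusted p = 0.0152) and had a like course, with 37.6, 78.2 and 8.32 RPM in the 3 fas collections. What set the collections apart was not tested.

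Other genes taken by size on the fas side were less extreme. The homolog of DRM2 (Solyc03g006360), a gene linked to dormancy in Arabidopsis, held 96.3, 74.6 and 113 RPM in lc and 225, 187 and 154 RPM in fas in the F&IM. Its groups were apart there and at 2 dpi, and the log2 difference over the stages was 0.77 (standard error 0.16, edgeR adjusted p = 0.00938, and 0.0415 by limma-voom with the collection as block). That call was lost without the first fas collection, the highest of the 3 at 234 RPM beside 160 and 131 RPM. Solyc06g068160, a homolog of a CBS-domain protein of Arabidopsis, had a median of 13.5 RPM in fas and 6.74 RPM in lc, and a log2 difference of 0.90 (standard error 0.14, edgeR adjusted p = 0.000139, and 0.00719 by limma-voom with the collection as block). Its first and second fas collections stood at 16.1 and 15.5 RPM, and the third, at 7.79 RPM, lay just above the lc collections of 7.00 to 7.66 RPM. The homolog of the ABA 8′-hydroxylase CYP707A3 (Solyc08g005610), which breaks down ABA in Arabidopsis, passed with 0.79 (standard error 0.23, edgeR adjusted p = 0.0896). Only its second fas collection was high, at 13.7 RPM beside 4.97 and 5.85 RPM, and the call was lost without that collection and without any of the 3 lc collections, and in limma-voom with the collection as block (adjusted p = 0.787).

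**Figure D4:**
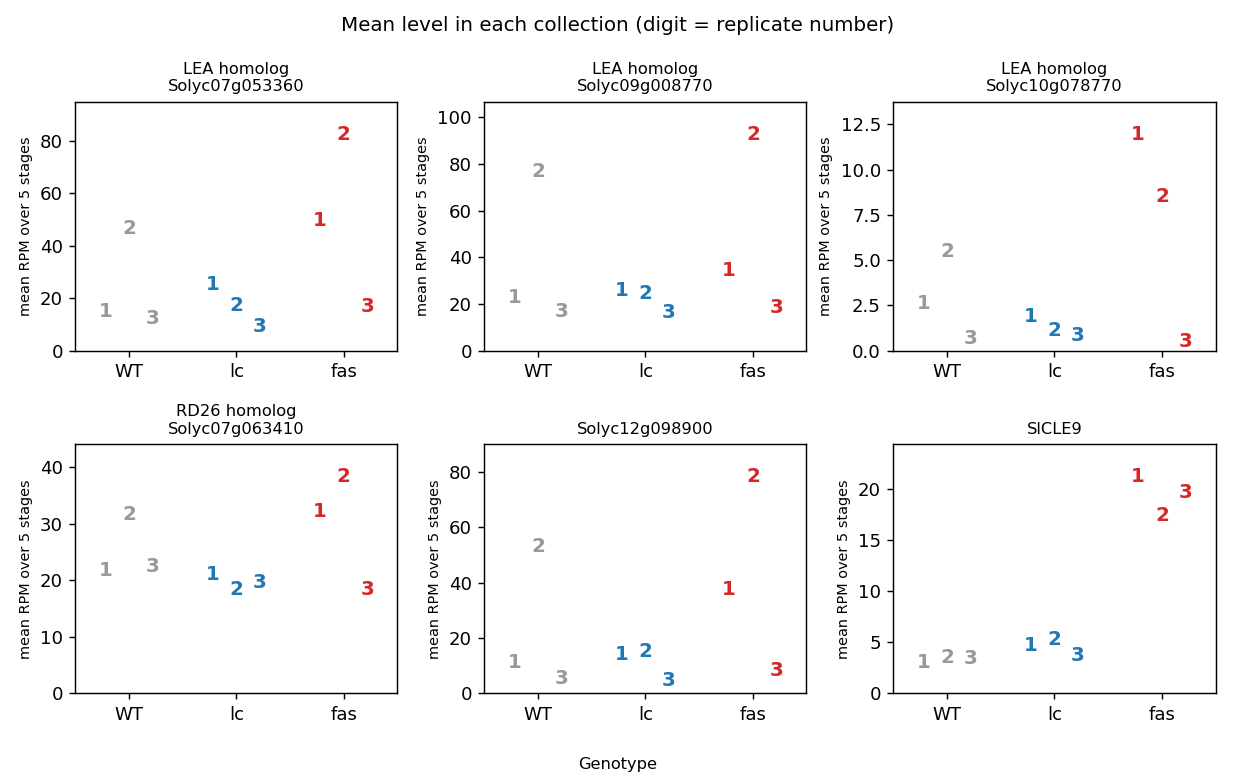
Mean RPM over the 5 stages (linear axes from 0) in each collection of the wild type (grey), lc (blue) and fas (red) for 3 LEA homologs, the RD26 homolog, Solyc12g098900 and, for contrast, SlCLE9. The digit is the replicate number; the third fas collection lies among or below the lc collections for all genes shown but SlCLE9, which in each fas collection lies above all lc collections.

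Some genes of sterol metabolism were lower in fas. The sterol and brassinosteroid list holds 22 tested genes, from mevalonate enzymes to brassinosteroid hydroxylases, and 7 were higher in lc and none in fas, beside 0.856% and 1.00% of all genes, with a median log2 difference of -0.17. The study paired most of its members with Arabidopsis homologs because they were differentially expressed in these libraries, so the direction is not independent evidence. The homolog of cycloartenol synthase (Solyc04g070980), which makes the first cyclic sterol precursor of plants, held 97.8, 93 and 95.2 RPM in lc at 2 dpi and 76.4, 60.7 and 81.6 RPM in fas. The groups were apart at 3 stages, and the log2 difference was -0.38 (standard error 0.063, edgeR adjusted p = 0.00066). The homologs of the sterol methyl oxidase SMO2 (Solyc06g005750, -0.37), of DWARF1 (Solyc02g069490, -0.39) and of DWARF5 (Solyc06g074090, -0.34), which act late in sterol synthesis in Arabidopsis, differed by about as much, with edgeR adjusted p of 0.00123, 0.00157 and 0.0025. The 3 homologs of brassinosteroid hydroxylases (DWARF4, BR6OX and CYP90D1) were not called, with log2 differences of 0.02 to 0.12.

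The list of steroidal glycoalkaloids, the bitter defence compounds that tomato makes from cholesterol, was set down from general knowledge of the pathway, and the sources used here do not name its 10 genes. Of these, 8 were higher in lc and none in fas, beside 0.856% and 1.00% of all genes. All 10 differences were negative, with a median of -0.34, beside 9466 negative differences among the 18224 genes tested. This list too was written with earlier results of these data known, so its counts and directions are not independent evidence. Solyc07g043460 held 320.4, 317 and 314 RPM in lc and 196, 235 and 256 RPM in fas in the F&IM. The groups were apart at 3 stages and overlapped at 4 and 6 dpi. The log2 difference was -0.38 (standard error 0.066, edgeR adjusted p = 0.000971). Solyc12g006460 was apart at 4 stages, with 403, 355 and 381 RPM against 279.9, 299.8 and 304 RPM at 2 dpi, and a log2 difference of -0.38 (standard error 0.067, edgeR adjusted p = 0.00126, but 0.111 by limma-voom with the collection as block). With the collection as block, limma-voom called 2 of the glycoalkaloid genes and 4 of the sterol genes, and with counts summed per collection none of either list passed. Summed over the glycoalkaloid genes, the collection means were 5360.4, 6154 and 5649 RPM in fas, 7247, 7317 and 6290.4 RPM in lc, and 6006, 8043 and 6359 RPM in the wild type.

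**Figure D5:**
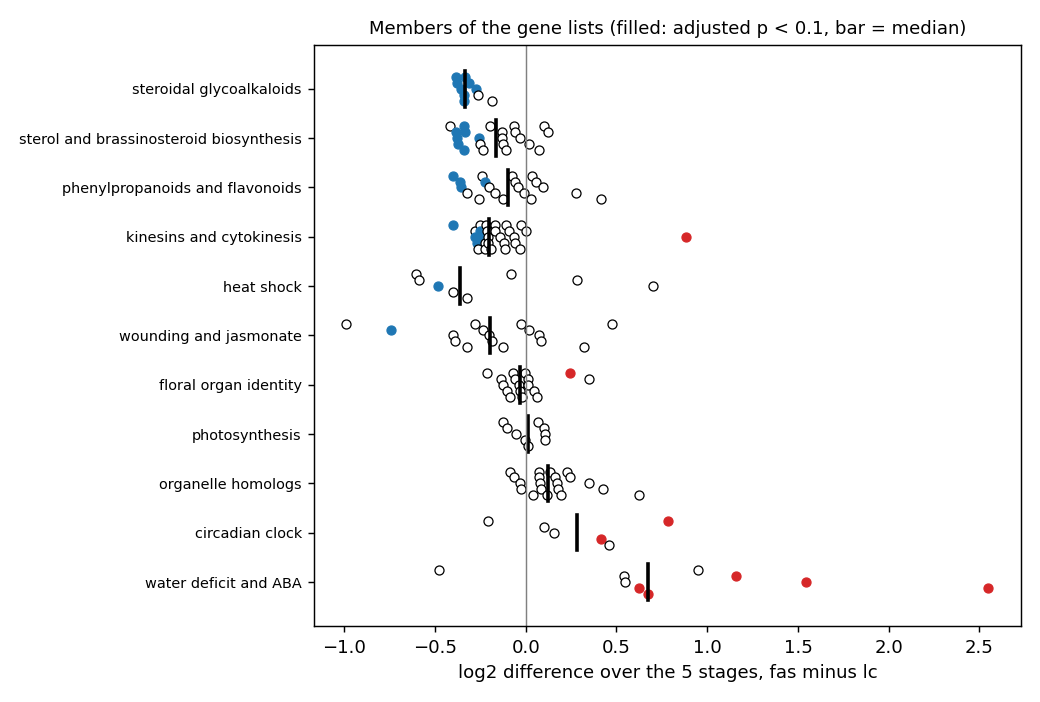
Log2 difference over the 5 stages, fas minus lc, of each tested member of 11 gene lists (points) with the list median (bar). Filled points passed an adjusted p under 0.1 in edgeR, in red where higher in fas and in blue where higher in lc; all 10 steroidal glycoalkaloid genes lie left of 0 and 8 of the 9 water deficit and ABA genes lie right of it.

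Genes that serve dividing cells showed small differences. Of the 28 kinesin and cytokinesis genes, 5 were higher in lc and 1 was higher in fas, beside 0.856% and 1.00% of all genes. A negative difference was seen in 26, beside 9466 of all 18224 genes tested, with a list median of -0.20. The study drew a group of kinesin genes from its differential expression in these libraries and described it as higher in lc. The counts and directions are therefore not independent evidence. The kinesin homolog Solyc07g065210 had a median of 205 RPM in lc and 166 RPM in fas (log2 difference -0.28, standard error 0.058, edgeR adjusted p = 0.00679), and the Cyclin B2 homolog Solyc03g032190 71.9 and 64.4 RPM (-0.25, standard error 0.058, edgeR adjusted p = 0.0177). The calls higher in lc numbered between 1 and 10 when 1 collection was left out, with 1 left without the first lc collection. With the collection as block, limma-voom gave Solyc07g065210 an adjusted p of 0.111 and Solyc03g032190 one of 0.456, and of the 28 genes it called Solyc11g071730 alone, which lies in the fas segment. The exception was the homolog of the kinesin ZWI (Solyc12g082730), which stood at 1.17 to 7.45 RPM in fas and 0.424 to 4.9 RPM in lc, both below the wild type (median 9.57 RPM). Its log2 difference was 0.88 (standard error 0.18, edgeR adjusted p = 0.00578). That call was lost without the second fas collection and in limma-voom with the collection as block (adjusted p = 0.112). In bulk tissue, fewer cells of a type and less RNA per cell cannot be told apart.

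In the remaining lists the calls are to be read beside 1.00% of all genes higher in fas and 0.856% higher in lc. The differentially expressed genes of the study in these libraries include phenylpropanoid and clock homologs, so those counts are not independent evidence. Of the 20 phenylpropanoid and flavonoid genes 4 were higher in lc, at adjusted p of 0.0534 to 0.0896 in edgeR, and 0 remained without the second lc collection. Of the 6 clock genes 2 were higher in fas, among them the homolog of COR27 (Solyc04g078880, log2 difference 0.79, standard error 0.16, edgeR adjusted p = 0.00573, but 0.105 by limma-voom with the collection as block), and 0 were called without the first lc collection. Heat shock and wounding lists gave 1 gene each higher in lc, and the summed level of both was highest in the third lc collection (824 RPM for heat shock beside 455 and 487 RPM in the other 2). Floral organ identity gave 1 of 17 genes, an AP1-related MADS gene (Solyc02g089210) with a difference of 0.24 (standard error 0.07, edgeR adjusted p = 0.0835), which limma-voom with the collection as block did not call (adjusted p = 0.771). None of the 9 photosynthesis genes and none of the 20 homologs of organelle genes was called. In the SYM, however, the summed level of the organelle homologs was 225 to 398 RPM in lc, 403 to 541 RPM in fas and 365 to 717 RPM in the wild type, so that fas and lc did not overlap, and 18 of the 20 had a positive difference there (median log2 difference 0.50). At the other 4 stages fas and lc overlapped, with medians of 0.035 to 0.081. Whether this bears on the other differences in the SYM was not tested.

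Within single stages few genes passed edgeR's test: 5 in the SYM (0.0274% of genes), 6 in the F&IM (0.0329%) and, of the buds, 5 at 2 dpi (0.0274%), 4 at 4 dpi (0.0219%) and 2 at 6 dpi (0.0110%). They come to 9 genes, namely SlCLE9, SlCLV3, SlYABBY2b, Solyc09g014550, Solyc01g081250, Solyc08g068710, Solyc02g083890, Solyc12g006570 and, at 6 dpi alone, Solyc02g086050. The stage counts rested on single collections: at 6 dpi 0 genes were called without any 1 of the lc collections or the first of fas, 149 without the second and 18 without the third fas collection, and 15 without the shallow library of fas 6 dpi, replicate 3. The F&IM count was 2 or 3 without a collection other than the third of fas, and 12 without that one. No gene passed for a difference between fas and lc that changed with stage at an adjusted p under 0.1 by edgeR (264 at an unadjusted p under 0.05) or by DESeq2 (0), and 3 had an unadjusted p under 0.001 (0.0165%). No gene passed either for a difference in the SYM unlike that in the 4 floral stages (427 at an unadjusted p under 0.05, and 0 by DESeq2).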

How the data were processed

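RNA from dissected tissue was sequenced by 3′ Tag RNA-seq. The authors used fqtrim for trimming and Rsubread for alignment (ITAG2.4 gene models) and deposited whole counts for 34725 genes; how reads were assigned to genes is not stated in the sources at hand. A line without a gene name (0.233% to 3.01% of a library) was left out of totals and tests. Counts were scaled to 1000000 per library (RPM). edgeR 4.0.16 in R 4.3.3 was run on the 30 libraries. The filter filterByExpr on the 10 groups left 18224 genes, TMM gave scaling factors, and the robust quasi-likelihood test used stage and genotype, or the 10 groups for a single stage. Benjamini-Hochberg adjustment ran over all genes tested, and an adjusted p under 0.1, as in the study, was called. Standard errors were derived from the log2 difference and its F. Comparisons with the wild type used a fit on all 60 libraries (18901 genes). Alternatives used DESeq2 1.42.0, limma 3.58.1 and the settings given at the end. The procedure was run on simulated libraries drawn independently. They held no collection effect, so that run cannot show how the correlation within collections affects the calls. P-values measure the spread between these libraries.

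Genes, lists and comparisons were chosen with earlier results of these data known. Named by rule are SlWUS, SlCLV3, SlCLE9, SlYABBY2b and TAG1, up to 12 called genes per direction by size (average of 5 RPM or more, 1 direction at all stages), up to 4 genes per list and per stage by p, any gene called for the interaction, and the introgressed genes. Many list members were taken from homolog pairs in the study's own gene lists. Those lists rest on differential expression in these libraries, so counts of such members are not independent evidence. Names come from the study, and Arabidopsis roles are background.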

Additional observations from a re-analysis of the deposited data

Results flagged for a closer look

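In 3 genes the difference between fas and lc changed with stage at an unadjusted p under 0.001 by edgeR's quasi-likelihood test, and none of them passed after adjustment over all genes. In the AP2/ERF gene Solyc03g117230 (p = 0.00018, n = 30 libraries) the fas libraries stood above all lc libraries in the SYM, at 61.5, 62.1 and 75.1 RPM against 44.1, 47.3 and 51.4 RPM. At 4 dpi the log2 difference was negative (-0.67), but the groups overlapped, with 14.5, 16.8 and 27.9 RPM in fas and 25.3, 27.4 and 40.2 RPM in lc. At 6 dpi fas held 1.97, 3.39 and 9.06 RPM against 0.423, 0.864 and 0.981 RPM in lc. The highest of the fas values at 6 dpi belongs to the library with the smallest total. In Solyc06g054640 (p = 0.000687, n = 30 libraries) fas was higher in the F&IM (6.72, 7.26 and 7.37 RPM against 2.07, 2.96 and 3.38 RPM) and at 2 dpi (7.31, 9.18 and 9.2 RPM against 2.45, 3.43 and 3.49 RPM), whereas the groups overlapped in the SYM and at 4 and 6 dpi. In SlCLV3 (Solyc11g071380, p = 0.000809, n = 30 libraries) fas was lower in the SYM and F&IM and the groups overlapped at 2 dpi. At 4 dpi the groups were apart again, with 1.7 to 3.72 RPM in fas and 4.35 to 5.91 RPM in lc (log2 difference -1.01). At 6 dpi they overlapped, with a log2 difference of 0.0041.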

How the results depend on the processing

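Over the 5 stages the 339 calls became 198 at an adjusted p under 0.05 (112 higher in fas, 86 in lc), 206 in the floral stages alone (78 higher in lc), 46 in limma-voom with the collection as block (22 and 24) and 4 with summed counts (2 and 2). Leaving out 1 collection gave 226 to 954 calls (103 to 546 higher in fas, 116 to 408 in lc), and 68 of the 339 genes were called in all 6 such fits. Without a filter on low counts, edgeR called 62 genes in the SYM, 44 in the F&IM and, of the buds, 33 at 2 dpi, 32 at 4 dpi and 167 at 6 dpi, 24 for the interaction (59 at an unadjusted p under 0.001) and 10 for the SYM against the floral stages. The cause was not tested. A stage fitted alone gave 2 genes in the SYM, 2 in the F&IM and 1 at 6 dpi. At 6 dpi DESeq2 called 16, the fit on 60 libraries 1 and the fit without the shallow library 15, and for the interaction at an unadjusted p under 0.001 DESeq2 and the 60 libraries gave 6 each and the fit without that library 5. Leaving out 1 collection gave 3 to 7 genes in the SYM, 2 to 12 in the F&IM and, of the buds, 4 to 6 at 2 dpi, 1 to 4 at 4 dpi and 0 to 149 at 6 dpi, with 0 to 1 for the interaction and 1 to 16 at its unadjusted p under 0.001. Of the alternatives run for called genes named by the rule, 1074 kept the call, 231 lost it and none turned the direction. The shallow library, with 441291 counts, limits 6 dpi.

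Same-numbered fas and lc libraries of a stage had residual correlations of 0.016 to 0.535, over 0.1 in 11 of 15 pairs. As no label pairs them and not every pair passed 0.1, the numbers were not taken as pairs, although the mean was 0.214 for equal and -0.106 for unequal numbers and 12 of 15 fas libraries correlated best with their own number, which is a hint from the data and not from the design. With the replicate block, 774 genes passed over the 5 stages (377 higher in fas, 397 in lc), 14 in the F&IM, 12 and 65 in the 2 and 6 dpi buds and 6 for the interaction at an unadjusted p under 0.001.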
